A study of Mus musculus with 4 samples.

Results

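This section concerns 47 genes of the extracellular matrix and of TGF-beta signalling in mouse kidney: collagen chains, other matrix proteins, matrix crosslinking enzymes, TGF-beta ligands and receptors, and markers of contractile and fibroblast-like cells. They were taken as a named list, and a probe was assigned to a gene when the RefSeq accession in the array files belonged to that gene. A named probe was found for 46 of the 47 genes, and no probe was matched to Col12a1. Of the 46, 42 were measured, each well above background on all 4 arrays, and 4 (Col5a2, Col15a1, Lox and Postn) were too dim. The whole comparison covered 24044 features. Total RNA was taken from kidneys of mice 2 weeks after bile duct ligation (BDL), an operation that ties off the bile duct and causes cholestasis, or after a sham operation. Each group had 2 biological replicates, as the submitters call them, with 1 replicate per 1-colour array; how many mice went into a replicate is not given in the sources used here. Strain, age and sex of the animals are not given in the sources used here, and no genetic change is named in the labels. The question was how the kidney differs between BDL and sham operation.

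Fibrosis is the build-up of collagens and other matrix proteins between the tubules and around the vessels of the kidney. TGF-beta ligands are secreted in latent form, are released by integrins and other activators, and bind a type II receptor that activates a type I receptor, which phosphorylates SMAD2 and SMAD3. Together with SMAD4 these enter the nucleus and raise the transcription of collagen, fibronectin and other matrix genes in fibroblasts and pericytes, and of feedback inhibitors that limit the signal. The basement membranes of tubules and glomeruli are a separate matrix, built of collagen IV, laminins and nidogen.

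Each value is a log2 signal minus that of the array's own 75th percentile, so a level of 0 is the signal of that percentile, and a difference is BDL minus sham. Levels of different probes are not comparable with each other. The share of spots well above background ran from 57.6% to 63.0% by array, with 0 spots saturated. Kidney markers fixed as a list were measured in 11 of 12 cases, each well above background on all 4 arrays, among them Umod, Lrp2 and Slc34a1. In whole tissue, fewer cells of a type and less RNA per cell cannot be told apart. In limma 0 of the 24044 features (0%) reached an adjusted p of 0.05, the lowest being 0.197, while 1352 (5.62%) had an unadjusted p under 0.05.

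No gene of the list passed the test between BDL and sham. Of the 42 measured genes, 0 passed an adjusted p of 0.05 in limma and 2 (Bgn and Tgfbi) had an unadjusted p under 0.05, with 0.772 as the lowest adjusted p. The mean was higher in BDL for 27 genes and lower for 15 (64.3% higher; of all features 48.5% were higher and 51.5% lower). The median difference was 0.12 (log2), against -0.01 over all features. The groups did not overlap in 10 genes (23.8%, against 36.6% of all features), with BDL higher in 8 (19.0%, against 17.3%) and lower in 2 (4.76%, against 19.3%). Those shares describe these 4 arrays, and the share of genes that stood higher without overlap was near that of all features. By group means 38 of the 42 genes differed by less than 1.5-fold and 2 by at least 2-fold, where 4.65% of all features differed by at least 2-fold. The 95% intervals of 19 genes lay within 2-fold either way, so a larger change of these is outside their interval, and those of 23 genes reached past it.

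**Figure D1:**
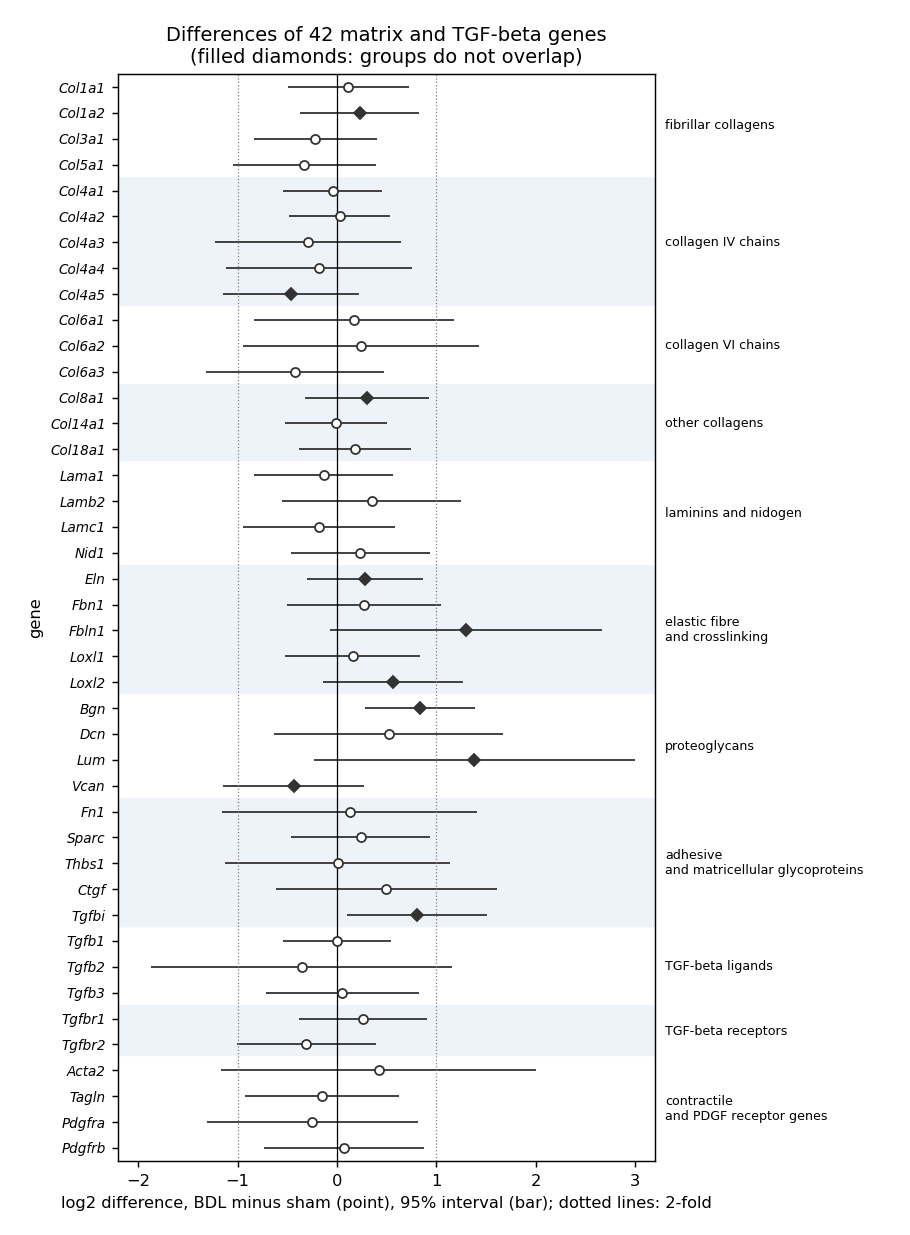
Log2 difference, BDL minus sham, of the 42 measured genes in order of their roles, with 95% intervals from limma (2 arrays per group). Filled diamonds mark the 10 genes whose groups do not overlap, and the intervals of Bgn and Tgfbi leave out 0.

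The genes of the list with the smallest p were Bgn and Tgfbi. Bgn encodes biglycan, a small leucine-rich proteoglycan that binds collagen and TGF-beta. Its level was 0.49 and 0.20 on the BDL arrays and -0.46 and -0.52 on the sham arrays. Both BDL arrays were high and the sham arrays lay close together, a 1.78-fold higher mean (0.84, SE 0.21, limma adjusted p = 0.772). Its 95% interval ran from 1.21-fold to 2.62-fold, and the difference stayed between 0.69 and 0.98 when any 1 array was left out. Tgfbi encodes a secreted adhesion protein and is named for its induction by TGF-beta. It stood at 2.58 and 2.78 on the BDL arrays against 2.15 and 1.60 on the sham arrays. The groups did not overlap, and the mean was 1.74-fold higher (0.80, SE 0.27, adjusted p = 0.863), with 0.53 to 1.08 over the fits that left out 1 array.

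The 250 bases upstream of the annotated start are shown for the genes with a promoter entry in the RefSeq table (GRCm38.p6) that stood furthest apart without overlap: 3 with higher levels in BDL (Bgn, Tgfbi and Fbln1) and both with lower levels (Col4a5 and Vcan). Higher and lower refer here to the brightest probe of each gene. Capitals mark matches on either strand to GGGCGG, the GC box bound by SP1, or to CAGACA, the core of the CAGA boxes that SMAD3 and SMAD4 bind (CCGCCC and TGTCTG on the other strand). No window shown holds both motifs, so matches to different motifs do not overlap, and the arrays do not measure binding.
Bgn, chrX:73483351-73483600, plus strand: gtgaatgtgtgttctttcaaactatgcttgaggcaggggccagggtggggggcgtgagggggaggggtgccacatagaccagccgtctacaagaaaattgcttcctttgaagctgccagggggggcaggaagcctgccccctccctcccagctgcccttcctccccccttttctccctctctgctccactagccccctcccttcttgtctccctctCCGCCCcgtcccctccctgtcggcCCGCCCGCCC
Tgfbi, chr13:56609336-56609585, plus strand: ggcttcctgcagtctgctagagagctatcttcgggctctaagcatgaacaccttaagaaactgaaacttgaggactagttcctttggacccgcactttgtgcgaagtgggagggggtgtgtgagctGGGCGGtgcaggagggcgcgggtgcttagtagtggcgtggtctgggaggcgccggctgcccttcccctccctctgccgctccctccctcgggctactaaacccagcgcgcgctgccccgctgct
Fbln1, chr15:85205699-85205948, plus strand: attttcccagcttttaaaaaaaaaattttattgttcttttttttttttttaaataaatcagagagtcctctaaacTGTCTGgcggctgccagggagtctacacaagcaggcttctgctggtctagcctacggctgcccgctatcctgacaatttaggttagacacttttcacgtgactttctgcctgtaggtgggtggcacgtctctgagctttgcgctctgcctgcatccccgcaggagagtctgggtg
Col4a5, chrX:141475169-141475418, plus strand: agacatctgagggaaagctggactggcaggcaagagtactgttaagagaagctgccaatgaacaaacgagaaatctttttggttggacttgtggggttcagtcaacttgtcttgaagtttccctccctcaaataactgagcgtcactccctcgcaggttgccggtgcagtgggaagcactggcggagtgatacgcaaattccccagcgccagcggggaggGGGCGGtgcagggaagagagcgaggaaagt
Vcan, chr13:89742513-89742762, minus strand: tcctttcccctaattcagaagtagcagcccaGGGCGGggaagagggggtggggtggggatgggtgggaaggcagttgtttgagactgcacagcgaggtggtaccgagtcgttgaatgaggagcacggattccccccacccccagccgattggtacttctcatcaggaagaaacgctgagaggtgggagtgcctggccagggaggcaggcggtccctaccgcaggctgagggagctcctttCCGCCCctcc
The Bgn window holds 3 matches to the GC box, the Vcan window 2 and the Tgfbi and Col4a5 windows 1 each. The Bgn matches that start 10 and 6 bases before the annotated start overlap each other and form 1 marked stretch. The Fbln1 window, which is 46.4% G and C, holds none. It holds 1 match to CAGACA, 175 bases before the start, and the other 4 windows hold none. Of all 32851 windows of this length in the table, 32.7% hold GGGCGG and 17.1% hold CAGACA. Of the 28 genes of the list with a window, taking the start furthest upstream, 14 hold GGGCGG and 9 hold CAGACA.

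Among the proteoglycans, Bgn was joined by Lum and, on 1 array, by Dcn. Lum encodes lumican, a proteoglycan that regulates collagen fibril spacing. BDL replicate 1 gave -1.43 and BDL replicate 2 gave -3.07, while the sham arrays gave -3.94 and -3.32. The groups did not overlap, yet most of the 2.61-fold higher mean (1.38, SE 0.61, adjusted p = 0.872) lay with BDL replicate 1, and the difference was 0.56 without it. Dcn encodes decorin, which binds collagen fibrils and TGF-beta. It was 4.56 and 3.53 on the BDL arrays and 3.81 and 3.24 on the sham arrays, so that only BDL replicate 1 stood above both. The difference of 0.52 (SE 0.43) was -0.0012 without that array. Vcan encodes versican, a large proteoglycan of loose matrix. Its brightest probe was lower in BDL, at -1.78 and -1.66 against -1.0 and -1.57, a difference of -0.43 (SE 0.27, adjusted p = 0.872). That probe went one way and the other retained probe, which was dim, the opposite way (0.28, SE 0.64). The dim probe was well above background on only 1 sham array, so it was retained through the BDL arrays alone. A further Vcan probe, not retained, was well above background on BDL replicate 2 alone. It read -5.86 and -4.49 in BDL against -6.38 and -7.02 in sham, also higher in BDL. Without sham replicate 1, the higher of the sham arrays, the Vcan difference was -0.15.

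Genes for elastic fibres and matrix crosslinking stood higher in BDL in 5 of 5 measured members (48.5% of all features), 3 of them without overlap (60%, against 17.3% of all features), with a median of 0.28, and 0 passed the test. Fbln1 encodes fibulin 1, a glycoprotein of elastic fibres and basement membranes. The BDL arrays gave -0.98 and -1.59, sham replicate 2 gave -1.92 and sham replicate 1 gave -3.24. Its mean was 2.46-fold higher (1.30, SE 0.52, adjusted p = 0.872), a difference of 0.64 without sham replicate 1, the lowest array. A further, dimmer probe of Fbln1 gave 1.09, also without overlap, at -3.00 and -3.68 in BDL against -5.03 and -3.84 in sham. It was well above background on only 1 sham array, so it was retained through the BDL arrays alone. Loxl2 encodes a lysyl oxidase that crosslinks collagen IV and fibrillar collagen. Its brightest probe read -0.20 and 0.36 on the BDL arrays and -0.42 and -0.55 on the sham arrays. All 3 probes of Loxl2 were higher in BDL without overlap, by 0.56 (SE 0.27, adjusted p = 0.872), 0.90 and 0.30. The probe with the 0.90 difference gave -2.22 and -2.21 against -3.24 and -2.99. Eln, which encodes elastin, was -2.76 and -2.57 in BDL against -3.10 and -2.79 in sham. That difference of 0.28 (SE 0.22, adjusted p = 0.886) had no overlap by a narrow gap. Fbn1, which encodes fibrillin 1, differed by 0.27 (SE 0.29) and Loxl1, a lysyl oxidase needed for elastic fibres, by 0.16 (SE 0.26), both with overlap.

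**Figure D2:**
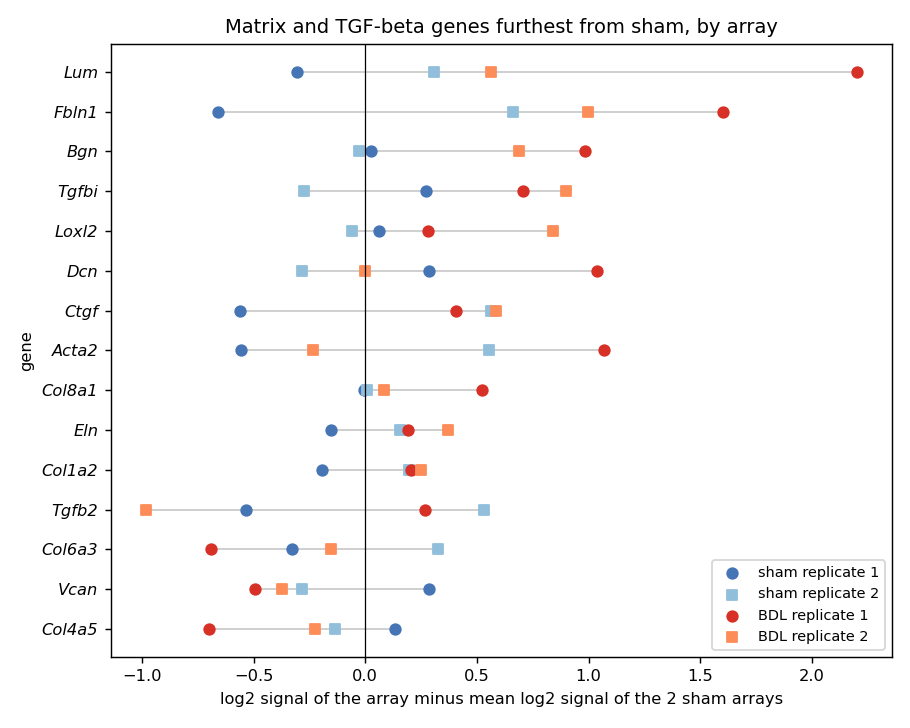
Log2 signal of each array minus the mean of the 2 sham arrays for the 15 genes with the largest differences or without overlap, ordered by difference. Bgn and Tgfbi have both BDL arrays to the right of both sham arrays, while BDL replicate 1 alone is far right for Lum, Dcn and Acta2.

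Of the fibrillar collagens, the bulk of scar matrix, 2 of 4 measured members had the higher mean in BDL and 0 passed the test. Col1a1 was 0.65 and 1.06 on the BDL arrays and 0.73 and 0.75 on the sham arrays. The BDL arrays lay on either side of the sham pair, with a difference of 0.11 (SE 0.23, adjusted p = 0.945) and a 95% interval from 0.709-fold to 1.65-fold. Col1a2, the partner chain of collagen I, stood at 3.37 and 3.42 against 2.98 and 3.36. The groups were apart by a hair, and the difference of 0.23 (SE 0.23, adjusted p = 0.900) was 0.03 without sham replicate 1. Col3a1, of the collagen III that forms fibrils with collagen I, differed by -0.22 (SE 0.23). Col5a1, of the collagen V that seeds those fibrils, differed by -0.33 (SE 0.27). The interval of Col3a1 ran from 0.559-fold to 1.32-fold and that of Col5a1 from 0.483-fold to 1.31-fold, past a 2-fold lower level. Col5a2 was well above background on BDL replicate 2 alone.

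The collagen IV chains of basement membranes were lower in BDL in 4 of 5 members, with a median of -0.18, and 0 passed the test. Without sham replicate 1 that median was 0.0049, and without BDL replicate 1 it was 0.02, with 3 of 5 members higher each time. Col4a1 and Col4a2, which encode the chains of the collagen IV found in all basement membranes, differed by -0.04 (SE 0.19) and 0.03 (SE 0.19). Col4a1 ranged from 2.96 to 3.08 over the 4 arrays and Col4a2 from 2.83 to 2.96. These were among the steadiest genes of the list, and the Col4a1 interval ran from 0.685-fold to 1.37-fold. Col4a3, Col4a4 and Col4a5 encode the collagen IV of the mature glomerular basement membrane. Col4a5 was 0.61 and 1.09 on the BDL arrays and 1.45 and 1.18 on the sham arrays, a difference of -0.46 (SE 0.26, adjusted p = 0.872) without overlap. On the brightest probe of each gene, BDL replicate 1 was the lowest array for all 3 chains. Without it the differences of Col4a3, Col4a4 and Col4a5 were 0.02, 0.28 and -0.23. The 3 probes of Col4a4 disagreed in sign and ran from -0.18 to 0.38, and on its dimmer probes BDL replicate 1 was not the lowest array. Podocytes make these chains, and the summed signal of their 14 markers was 103.5 in BDL replicate 1, 92.3 in BDL replicate 2 and 79.9 and 68.4 in sham. The part of podocytes in these levels was not tested.

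Laminins and nidogen differed by -0.18 to 0.35, all 4 with overlap. Lamb2, the laminin chain of glomerular and vascular basement membranes, was 1.20 and 1.07 in BDL against 0.37 and 1.21 in sham. Only sham replicate 1 stood apart, and the difference of 0.35 (SE 0.34) was -0.08 without that array. Lama1 differed by -0.13 (SE 0.26), Lamc1 by -0.18 (SE 0.29) and Nid1, which links laminin to collagen IV, by 0.23 (SE 0.26). Of 20 other basement membrane genes 20 were measured, 11 higher and 9 lower in BDL, and 0 passed. Lamc3 was 2.33-fold lower (-1.22, SE 0.29, adjusted p = 0.761), Tinagl1 1.80-fold lower (-0.85, SE 0.22) and Lama2 1.73-fold lower (-0.79, SE 0.31), each without overlap.

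Collagen VI forms beaded filaments around cells. Col6a1, Col6a2 and Col6a3 differed by 0.17 (SE 0.38), 0.24 (SE 0.45) and -0.42 (SE 0.34), all with overlap. The sham arrays were further apart than the groups for all 3 genes, with Col6a1 at 0.19 and 1.18 and Col6a3 at -0.13 and 0.53. Col6a3 was -0.49 and 0.05 on the BDL arrays (adjusted p = 0.888). Of the remaining collagens, Col8a1, a short-chain collagen of vessel walls, was -3.12 and -3.56 in BDL against -3.65 and -3.64 in sham. The groups did not overlap, and the difference of 0.30 (SE 0.24, adjusted p = 0.885) was 0.09 without BDL replicate 1. The Col8a1 probe was dim, and with normexp background correction of all 4 arrays its difference was 0.08. Col18a1, whose fragment is endostatin, differed by 0.18 (SE 0.21) with overlap on one probe and by 0.39 (SE 0.21) without overlap on the other. Col14a1, a collagen of fibril surfaces, differed by -0.01 (SE 0.19). Col15a1 was well above background on 1 array of each group. Of 25 further collagen genes 12 were measured, 3 higher and 9 lower in BDL with a median of -0.14, and 0 passed. Those with the smallest p were Col26a1 (0.61, SE 0.19), Col6a6 (0.51, SE 0.22) and Col5a3 (-0.63, SE 0.34).

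Enzymes that modify and fold collagen did not stand higher as a group. Of 22 listed, 20 were measured, 8 higher and 12 lower in BDL, with a median of -0.14, and 0 passed. P4ha1, a prolyl hydroxylase subunit, was 1.73-fold lower (-0.79, SE 0.29, adjusted p = 0.872). Colgalt1, a collagen galactosyltransferase, was 1.35-fold higher (0.44, SE 0.19), and Plod2, a lysyl hydroxylase, 1.26-fold higher (0.33, SE 0.24).

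For all 5 measured adhesive and matricellular glycoproteins the BDL mean was the higher one (median difference 0.24), in 1 of them, Tgfbi, without overlap (20%, against 17.3% of all features), and 0 passed the test. Ctgf (now Ccn2), a matricellular gene induced by TGF-beta and YAP, stood at 3.70 and 3.89 on the BDL arrays against 3.86 and 2.74 on the sham arrays. Sham replicate 1 alone was low, and the difference of 0.50 (SE 0.42, adjusted p = 0.888) was -0.07 without it. Thbs1, which activates latent TGF-beta, had the same low array (0.07, against 1.20 in sham replicate 2 and 0.77 and 0.51 in BDL) and differed by 0.01 (SE 0.43). Fn1, which encodes fibronectin, was 2.02 and 3.09 in BDL and 2.02 and 2.84 in sham. Replicate 2 was the higher array in each group, and the groups differed by 0.13 (SE 0.48). Sparc, a collagen-binding glycoprotein, differed by 0.24 (SE 0.26) with overlap on its brightest probe. Its other probe was 0.74 and 0.64 against 0.17 and 0.23, a difference of 0.49 (SE 0.19, adjusted p = 0.867 over all retained probes) without overlap.

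The TGF-beta ligands did not stand apart. Tgfb1 was -1.31 and -1.37 on the BDL arrays and -1.46 and -1.21 on the sham arrays. The BDL values lay between the sham values, and the 95% interval ran from 0.688-fold to 1.45-fold (difference 0.00071, SE 0.20). Tgfb3 differed by 0.05 (SE 0.29). Tgfb2 was -1.41 and -2.66 in BDL and -2.21 and -1.15 in sham, a difference of -0.36 (SE 0.57, adjusted p = 0.931), with arrays of each group far apart. Of the receptors, Tgfbr1, the type I receptor, differed by 0.26 (SE 0.24) with overlap on its brightest probe. A dimmer probe of Tgfbr1 was -1.80 and -1.87 in BDL against -2.55 and -2.71 in sham, 0.80 higher (SE 0.20, adjusted p = 0.811 over all retained probes) without overlap. Tgfbr2, the type II receptor, differed by -0.31 (SE 0.26), and its other probe by 0.12.

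Of 33 other genes of the TGF-beta and BMP pathways 31 were measured, and 22 of these had the higher mean in BDL and 9 the lower (median difference 0.20). They did not overlap with BDL higher in 12 (38.7%, against 17.3% of all features) and with BDL lower in 2 (6.45%, against 19.3%), and 0 passed the test. The 3 with the smallest p were Pmepa1, Skil and Smad7, all of them negative regulators of TGF-beta signalling that are themselves induced by it. Pmepa1 was 2.70 and 2.81 on the BDL arrays against 1.86 and 1.93 on the sham arrays, 1.81-fold higher (0.86, SE 0.19, adjusted p = 0.759). Skil, which encodes the SMAD repressor SnoN, was 1.40 and 1.70 against 0.91 and 0.89, 1.57-fold higher (0.65, SE 0.21, adjusted p = 0.860). Smad7, an inhibitory SMAD, was 1.00 and 1.13 against 0.43 and 0.59, 1.47-fold higher (0.56, SE 0.20, adjusted p = 0.872). For these 3 genes the arrays of a group lay closer to each other than to the other group, a trait that picking by smallest p favours. The signal-transducing Smad2, Smad3 and Smad4, named after their values were seen, differed by -0.0035 (SE 0.21), -0.03 (SE 0.23) and 0.06 (SE 0.19).

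**Figure D3:**
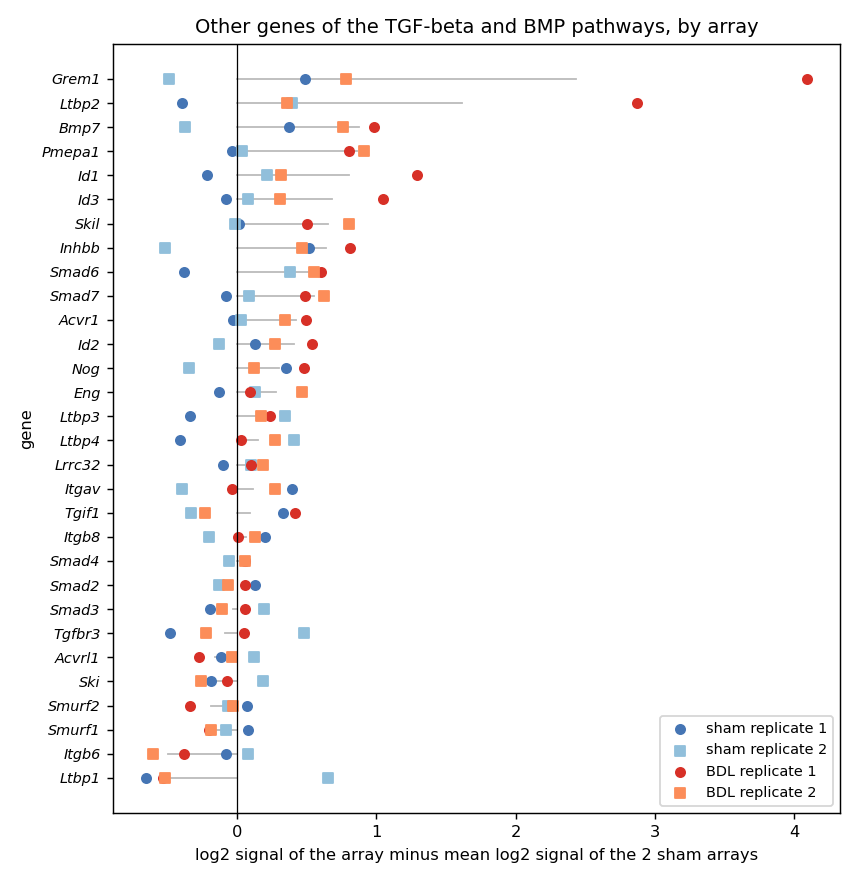
Log2 signal of each array minus the mean of the 2 sham arrays for the 31 other measured genes of the TGF-beta and BMP pathways except 1 that is not shown, with a grey line to the mean difference. Pmepa1, Skil and Smad7 have both BDL arrays to the right of the sham arrays, and Grem1 and Ltbp2 have BDL replicate 1 far from the rest.

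The 4 contractile and PDGF receptor genes of the list overlapped between groups, and none passed the test. Acta2 encodes smooth muscle actin, the marker of myofibroblasts and of vascular smooth muscle. It was 2.81 and 1.51 on the BDL arrays and 1.19 and 2.30 on the sham arrays, so the groups overlapped (difference 0.42, SE 0.60, adjusted p = 0.926), and the difference was -0.23 without BDL replicate 1. Tagln, an actin-binding protein of the same cells, differed by -0.15 (SE 0.29). The PDGF receptor genes Pdgfra and Pdgfrb, which mark fibroblasts and pericytes, differed by -0.25 (SE 0.40) and 0.07 (SE 0.30). Of 21 fibroblast and pericyte markers, 3 of which belong to the 47 genes, 20 were measured, 12 higher and 8 lower, with 0 past the test. Of these, 5 were free of overlap in each direction (25%, against 17.3% of all features higher and 19.3% lower). By smallest p the first 3 were all higher in BDL. Vim, the intermediate filament gene vimentin, was 1.52-fold higher (0.61, SE 0.23, adjusted p = 0.872), Clec3b 1.48-fold (0.57, SE 0.23) and Pi16 1.56-fold (0.64, SE 0.26). The 5 markers lower without overlap differed by -0.20 to -0.44. Larger differences with overlap, named after their values were seen, went both ways. Fap differed by -0.84 (SE 0.57), Thy1 by -0.63 (SE 0.42) and Mfap5 by 0.88 (SE 0.94).

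BDL replicate 1 stood apart in some of these genes and in the markers of tissue outside the nephron. Postn, a matricellular gene of fibroblasts, was well above background on that array alone, at -2.01, with -7.05 in BDL replicate 2 and -5.33 and -4.77 in sham. The groups overlapped, since BDL replicate 2 was the lowest of the 4 arrays, and no fold is given. Lox, the crosslinking enzyme of collagen and elastin, was likewise above background on BDL replicate 1 alone, by its brighter probe. That probe read -4.01 there, against -6.11 in BDL replicate 2 and -6.98 and -6.14 in sham. The other Lox probe was below background on all 4 arrays, at -5.32 in BDL replicate 1. Urothelial markers, of the lining of the renal pelvis, were highest on that array in 9 of 10 cases, with a summed signal of 83.0 there, 20.0 in BDL replicate 2 and 23.1 and 27.8 in sham. Adipocyte markers were highest there in 10 of 11 cases, with a summed signal of 282, against 77.7 in BDL replicate 2 and 117 and 105 in sham. No marker of either list was below background on all 4 arrays. Vascular smooth muscle markers were highest there in 6 of 10 cases, with a summed signal of 21.3, against 19.7 in BDL replicate 2 and 16.8 and 21.4 in sham, and Lmod1 was below background on all arrays. Without Smtn, the brightest of these markers, the sums were 6.6 there, 2.10 in BDL replicate 2 and 2.39 and 3.05 in sham. The part of these tissues in the levels of Lum, Dcn, Postn, Lox, Acta2 and Fbln1 was not tested. Without BDL replicate 1 the Bgn difference was 0.69 and that of Tgfbi 0.90.

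**Figure D4:**
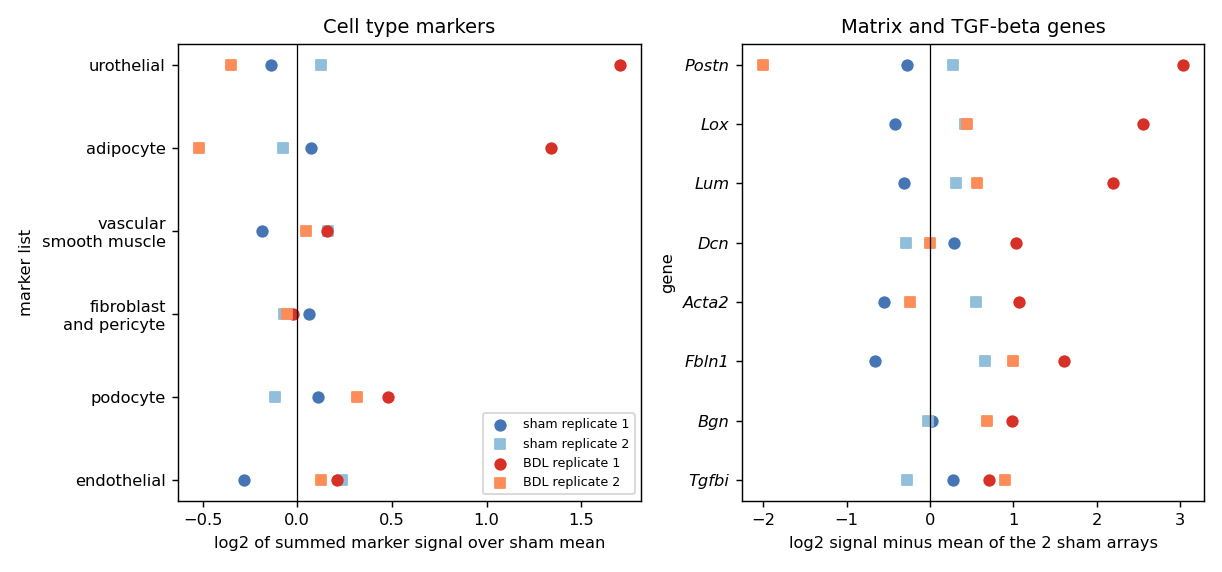
Left, log2 of the summed marker signal of each array over the mean of the 2 sham arrays for 6 cell type lists. Right, log2 signal minus the sham mean for 8 genes of the list, each by its brightest probe. BDL replicate 1 is far right for urothelial and adipocyte markers and for Postn, Lox and Lum. Both BDL arrays lie to the right of sham for Bgn and Tgfbi.

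Sham replicate 1 was the lowest array for 21 of the 42 genes, and it was the lowest for 27.9% of all features. The median difference of the 42 genes was -0.06 without it and 0.28 without sham replicate 2, so its direction depended on which sham array was left out. The median was 0.03 without BDL replicate 1 and 0.10 without BDL replicate 2. The medians of the elastic fibre and crosslinking genes (0.13 to 0.53) and of the proteoglycans (0.28 to 1.01) stayed above 0 in every such fit. Those of collagen VI and of the adhesive glycoproteins were below 0 without sham replicate 1, at -0.33 and -0.07, and that of the contractile and PDGF receptor genes moved from -0.04 to -0.32. Without sham replicate 2 the contractile and PDGF receptor median was 0.34, with 4 of 4 higher, and those of collagen VI and the glycoproteins were 0.65 and 0.54. On sham replicate 1, 13 of 14 endothelial markers were at their lowest and 12 of 14 interferon response genes at their highest. Endothelial summed signal was 69.7 there, 99.6 in sham replicate 2 and 98.1 and 92.5 in BDL, and interferon summed signal was 101 there, 16.9 in sham replicate 2 and 13.9 and 10.9 in BDL. Macrophage and dendritic cell markers were highest there in 9 of the 13 with a named probe. Fcgr1, among these 9, was below background on all arrays. The summed signal of the list was 296 there, 85.9 in sham replicate 2 and 90.4 and 87.2 in BDL. Most of that sum was Cd74, named after its values were seen, and without it the sums were 85.4, 66.4, 72.4 and 66.5 in the same order. Their part in the levels of the matrix genes was not tested.

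**Figure D5:**
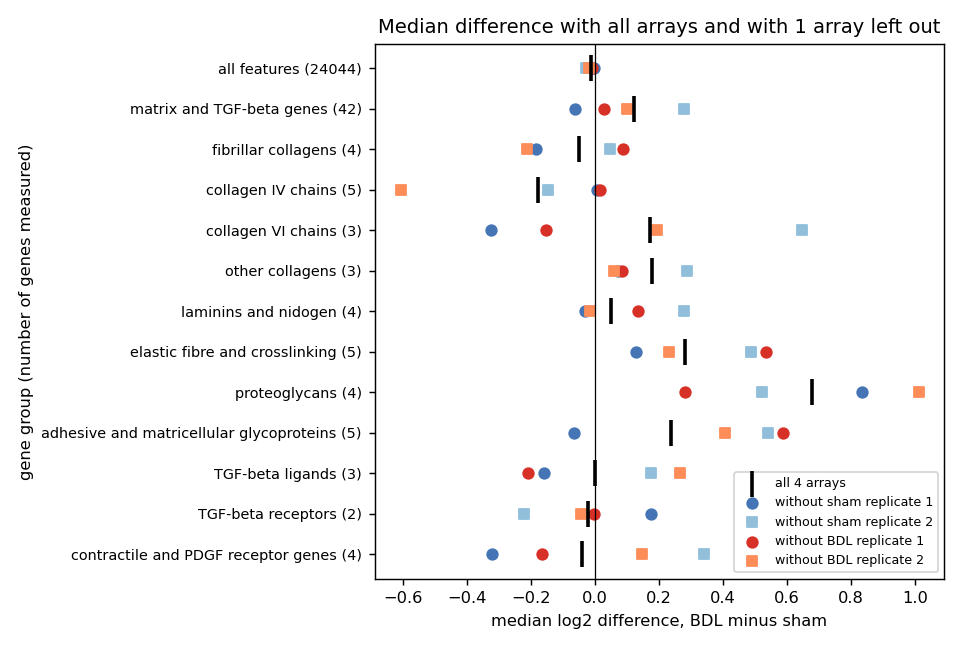
Median log2 difference, BDL minus sham, of each gene group with all 4 arrays (black bar) and with 1 array left out (points). The median of the 42 genes runs from -0.06 to 0.28, while that of all features stays close to 0.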

How the data were processed

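RNA of 2 BDL and 2 sham kidney samples was labelled with Cy3 and hybridised to 1-colour arrays, per the labels' protocols, and the submitters' processing notes name Agilent Feature Extraction 11.0.1.1 as the software. The deposited processed signal is an intensity that, per the file headers, was background-subtracted and spatially detrended, with no scaling from array to array. The authors' deposited value table holds intensities equal to that signal divided by 1 constant per array (column medians 0.328, 0.339, 0.329 and 0.330), linear and not centred. The constants were 709 and 844 in sham and 739 and 940 in BDL. They lay close to the 75th percentile signals of 712, 849, 741 and 945, so that table is nearly the main setting again. The exact rule behind the constants is not known. All arrays share 1 slide and 1 scan time. Control and outlier-flagged spots were left out, spots of a probe averaged, and log2 signals set against each array's 75th percentile. Accessions were matched to RefSeq (GRCm38.p6), naming 27223 of 55668 probes. Probes well above background on both arrays of a group were retained (32283), and the retained probe with the highest mean was used per gene. Tests were limma 3.58.1 (R 4.3.3, two-sided) with Benjamini-Hochberg adjustment over all 24044 features, tested on simulated data. With 2 arrays a group the smallest p of an exact permutation test is 0.333, so none was used. Summed marker signals add linear signals relative to the 75th percentile. Genes described in full are those without overlap and the 12 with the largest difference, and of other lists up to 3 genes with the smallest p. Members and lists were chosen with earlier results of these data known. The p-values measure the spread between these samples, which may be partly technical where a replicate's animals are not stated, and the number of arrays limits precision. Alternatives were other normalizations, normexp (on median spot and background intensities, deposited as raw values per the file headers), the authors' table, filters, probe rules, array weights, a replicate block and leaving out each array. The other deposited columns used are flags. Some genes of the lists are not reported by name here.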

Additional observations from a re-analysis of the deposited data

How the results depend on the processing

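With limma, 0 features and 0 of the 42 genes passed the threshold under the main setting and all 14 alternatives, and the smallest adjusted p of a gene of the list was 0.363. The number of genes higher without overlap was 8, 6 with normexp, 12 with every retained probe and 11 with the mean of a gene's retained probes. Leaving out 1 array gave 13 to 24, and the number lower without overlap went from 2 to between 5 and 15, since 3 arrays overlap less often than 4. It was 1 with the mean of a gene's retained probes. With every retained probe, a gene was counted when any 1 of its probes had no overlap. The shares of all features under these alternatives are not given, so the counts are not read as a trait of the list. The median difference was between 0.08 and 0.18 under the settings that kept all arrays and between -0.064 and 0.28 when 1 was left out. Replicate numbers gave no sign of pairing (r = 0.063 between same-numbered deviations). With the replicate number as a block, 0 features passed (smallest adjusted p 0.314, 1448 at an unadjusted p under 0.05). The block cannot move a difference in this balanced design, so the median difference stayed at 0.12. No slide block could be fitted, since all arrays share 1 slide. Of 586 recomputed differences, 543 kept their sign, 7 turned with all arrays kept and 36 turned when 1 array was left out. The 543 include many that could not turn. The filter settings, every retained probe (read on the brightest probe), array weights and the replicate block left each gene's difference as in the main setting. The mean of a gene's probes could not move genes with 1 retained probe. Col4a4 turned to 0.17 with the mean of its probes, Col14a1 to 0.0013 and Thbs1 to -0.0043 with quantile normalization, and Thbs1 to -0.035 and Tgfb1 to -0.033 with normexp. Tgfb1 also turned to -0.0056 with median centring and to -0.00025 in the authors' deposited table. The causes were not tested. The sign of 24 genes depended on the array left out, and 18 kept it, 12 higher and 6 lower in BDL. It ran for Col1a1 from -0.094 to 0.32, Col4a1 from -0.094 to 0.0049, Col4a2 from -0.033 to 0.091, Col4a3 from -0.63 to 0.035, Col4a4 from -0.63 to 0.28 and Col6a1 from -0.33 to 0.67. It also ran for Col6a2 from -0.23 to 0.71, Col14a1 from -0.079 to 0.054, Lama1 from -0.42 to 0.15, Lamb2 from -0.075 to 0.77, Lamc1 from -0.47 to 0.10 and Loxl1 from -0.099 to 0.41. Further ranges were Dcn from -0.0012 to 1.04, Fn1 from -0.41 to 0.66, Sparc from -0.0086 to 0.48, Thbs1 from -0.56 to 0.57, Ctgf from -0.065 to 1.06 and Tgfb1 from -0.13 to 0.13. The last were Tgfb2 from -0.98 to 0.27, Tgfb3 from -0.21 to 0.32, Acta2 from -0.23 to 1.07, Tagln from -0.42 to 0.12, Pdgfra from -0.76 to 0.27 and Pdgfrb from -0.28 to 0.42. Signal close to background limits Col5a2, Col15a1, Lox and Postn, and Col8a1 and Lum were also dim.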
